A study of Mus musculus with 7 samples.

Results

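The 8 genes described here encode the dystrophin-glycoprotein complex and its nearest partners, namely Dmd, Utrn, Dag1, Sgca, Sgcb, Sgcd, Sspn and Lama2. They were taken by symbol from the deposited gene table, and all 8 were present among its 53819 genes. RNA came from the quadriceps of male, wild type C57BL/6J mice injected at 8 weeks of age with 200 µl of an AAV8 vector (tail vein), with harvest 54 days after injection. That vector was AAV8-Alb-IGFBP1 in 3 libraries (AAV8-IGFBP1) and AAV8-Alb-Null, its control, in 4 libraries (AAV8-Null). AAV8 is an adeno-associated virus serotype with a strong preference for liver, and IGFBP1 is a secreted protein that binds insulin-like growth factors. The labels do not spell out Alb. The labels do not say that each library is a separate mouse, so p-values measure the spread between these libraries, which exceeded counting error but may be partly technical.

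The dystrophin-glycoprotein complex spans the sarcolemma, the membrane of the muscle fibre. Dystrophin binds actin inside the fibre, dystroglycan crosses the membrane and binds laminin outside it, and the sarcoglycans with sarcospan hold the assembly in place. Loss of dystrophin causes Duchenne muscular dystrophy, and loss of a sarcoglycan or of the laminin alpha 2 chain causes other muscular dystrophies. Utrophin is a relative of dystrophin that sits mainly at the neuromuscular junction in adult fibres.

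The promoters of Dmd, Sgcd and Dag1 are shown because Dmd had the strongest correlations among the members with Sgcd and with Dag1, as described further on. Of these pairs only Dmd with Sgcd passed adjustment, and not by rank. RefSeq windows, on build GRCm38.p6, were found for 8 of 8 members. The 250 bases before the start are given 5′ to 3′ on the gene's own strand, for Dmd at chrX:82948620-82948869 (plus strand, the first of 2 listed starts), for Sgcd at chr11:47379326-47379575 (minus strand) and for Dag1 at chr9:108263959-108264208 (minus strand, the first of 2 listed starts). Capitals mark 4 motifs searched on both strands, namely the E-box CANNTG, the GC box GGGCGG, the CArG box and the MEF2 site.
Dmd: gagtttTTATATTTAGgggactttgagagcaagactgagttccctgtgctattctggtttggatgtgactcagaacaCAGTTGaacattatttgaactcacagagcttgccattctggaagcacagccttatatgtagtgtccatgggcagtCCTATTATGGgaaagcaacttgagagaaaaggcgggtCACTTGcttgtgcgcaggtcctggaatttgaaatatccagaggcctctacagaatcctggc
Sgcd: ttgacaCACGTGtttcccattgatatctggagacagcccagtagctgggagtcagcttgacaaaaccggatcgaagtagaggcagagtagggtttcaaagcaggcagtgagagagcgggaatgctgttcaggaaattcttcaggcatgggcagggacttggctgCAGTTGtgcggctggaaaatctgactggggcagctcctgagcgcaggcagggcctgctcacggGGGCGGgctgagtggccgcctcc
Dag1: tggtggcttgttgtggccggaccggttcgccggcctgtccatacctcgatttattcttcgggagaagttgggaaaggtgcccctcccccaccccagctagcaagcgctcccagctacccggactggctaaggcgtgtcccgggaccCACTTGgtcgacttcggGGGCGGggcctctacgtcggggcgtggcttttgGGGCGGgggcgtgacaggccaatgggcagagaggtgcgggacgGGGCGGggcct
The Dmd window held 1 CArG box, 1 MEF2 site, 2 E-boxes and no GC box. The Sgcd window held 2 E-boxes and 1 GC box, and the Dag1 window 1 E-box and 3 GC boxes. No motif in these 3 windows overlapped another. Of all 32851 such windows, 66.2% held an E-box, 32.7% a GC box, 1.47% a CArG box and 2.92% a MEF2 site. GC content was 45.2% in the Dmd window, 58.0% in the Sgcd window and 67.6% in the Dag1 window, against a median of 52.4% over all windows. The window of the other listed Dmd start, not shown, held 3 GC boxes and no E-box, CArG box or MEF2 site, with 60.0% GC. That of the other listed Dag1 start held 1 E-box and 3 GC boxes, with 74.8% GC. All these motifs are matches of letters and do not show that a factor binds there.

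Library totals ran from 39927146 to 46197214 estimated counts in AAV8-IGFBP1 and from 38947493 to 51210391 in AAV8-Null (exact permutation p = 0.714, two-sided). Igfbp1 had 142 to 1425 counts in AAV8-IGFBP1 and 0 to 8 in AAV8-Null, in the order of the labels, although its edgeR adjusted p was 0.0691 (0.0128 with DESeq2 and 0.314 with limma-voom). With 1 library left out, edgeR gave 0.00727 without AAV8-IGFBP1 replicate 2, 0.0501 to 0.0870 without another AAV8-IGFBP1 library and 0.230 to 0.432 without an AAV8-Null library. Summed markers of fast fibres, such as Ckm and Mylpf, took 158624 to 175451 CPM in AAV8-IGFBP1 and 140624 to 166553 CPM in AAV8-Null, where CPM is the count scaled by library total, and none of the 9 was at 0 in all libraries. Of 8 slow fibre markers all 8 had a log2 fold change below 0 (0 passed the test), with sums of 226 to 763 CPM in AAV8-IGFBP1 and 575 to 1779 CPM in AAV8-Null. The first principal component of log2 CPM (27.2% of variance) ran from -25.7 to -11.9 in AAV8-Null and from 8.24 to 45.2 in AAV8-IGFBP1. On it the groups did not overlap (exact permutation p = 0.0286, the smallest possible, two-sided). AAV8-IGFBP1 replicate 2 stood apart within its group, at 45.2 against 8.24 and 12.6. It also stood apart in adipocyte markers, whose sum was 1463 CPM there and 241 to 481 CPM elsewhere. In bulk RNA, fewer cells of a type and less RNA per cell cannot be told apart.

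The comparison asked whether muscle of mice given the IGFBP1 vector held different levels of these transcripts. None of the 8 genes passed the test. All 8 passed the filter on low counts, and by edgeR's quasi-likelihood test with Benjamini-Hochberg adjustment over 14935 genes their adjusted p-values ran from 0.427 to 0.967. DESeq2 and limma-voom also called 0 of 8, and 0 had an unadjusted edgeR p under 0.05. Over all genes tested, 0.583% were called by edgeR (0.388% higher and 0.194% lower), 3.28% by DESeq2 and 0.415% by limma-voom, and 12.9% had an unadjusted edgeR p under 0.05, so a count of 0 among 8 is near the background. The log2 fold change was above 0 in 4 members and below 0 in 4, with a median of 0.02, against -0.0010 over all genes tested. The groups did not overlap for 1 member, Sgcb, and for 12.3% of all genes tested.

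**Figure D1:**
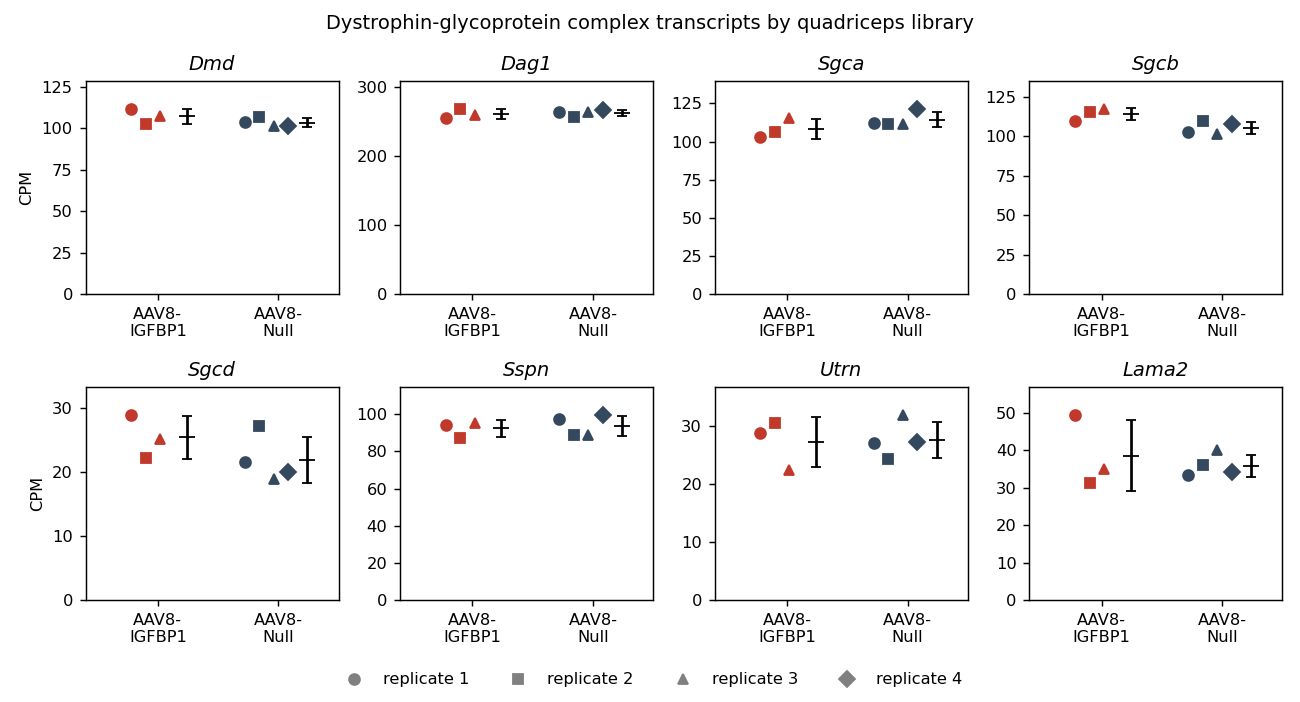
Level of each member in each quadriceps library in CPM, with AAV8-IGFBP1 in red and AAV8-Null in dark blue, marker shapes for replicate numbers, and the group mean with SD beside the points. The points of the groups overlap for 7 genes, and for Sgcb the AAV8-IGFBP1 points, from 109.8 CPM, lie just above the AAV8-Null points, up to 109.5 CPM.

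Dmd, which encodes dystrophin, was at 111.7, 102.8 and 107.2 CPM in AAV8-IGFBP1 replicates 1 to 3, against 103.5, 106.9, 101.6 and 101.3 CPM in AAV8-Null replicates 1 to 4. AAV8-IGFBP1 replicate 1 was the highest library and AAV8-IGFBP1 replicate 2 lay among the AAV8-Null values, so the groups overlapped. Dmd had a log2 fold change, AAV8-IGFBP1 over AAV8-Null, of 0.05 (SE 0.05, edgeR adjusted p = 0.739), whose 95% interval reached from a 0.953-fold to a 1.13-fold level. The counts are per gene, so the full-length and the short dystrophin isoforms were not separated.

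Utrn, which encodes utrophin, was at 28.8, 30.5 and 22.4 CPM in AAV8-IGFBP1, against 27.1, 24.4, 31.8 and 27.2 CPM in AAV8-Null. Its lowest library was AAV8-IGFBP1 replicate 3 and its highest AAV8-Null replicate 3, and the other 5 lay between them. The log2 fold change of Utrn was -0.02 (SE 0.12, edgeR adjusted p = 0.967; 95% interval 0.816-fold to 1.19-fold). With AAV8-IGFBP1 replicate 3 left out it was 0.10, and with AAV8-Null replicate 3 left out 0.06. Relative to Dmd, the CPM of Utrn was 25.4 ± 4.41% in AAV8-IGFBP1 and 26.8 ± 3.53% in AAV8-Null (SD, n = 3 and 4), a ratio of counts not corrected for transcript length. The same libraries, AAV8-Null replicate 3 and AAV8-IGFBP1 replicate 3, were the extremes for tenocyte markers, cells of tendon: the sum of the 7 markers was 79.6 to 321 CPM in AAV8-IGFBP1 and 170.0 to 393 CPM in AAV8-Null, and none was at 0 in all libraries. Both libraries were also the extremes for summed fibroblast markers (374 and 206 CPM, in that order) and summed macrophage markers (66.8 and 30.8 CPM). The part of these cell types in the spread of Utrn was not tested.

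Dag1 encodes dystroglycan, which is cut into the laminin-binding alpha subunit and the membrane-spanning beta subunit. Its levels were 254.7, 268.4 and 258.8 CPM in AAV8-IGFBP1, against 263.7, 256.8, 263.6 and 266.3 CPM in AAV8-Null. The AAV8-IGFBP1 libraries held both the lowest and the highest value. Dag1 varied least of the 8 genes, with a coefficient of variation of 1.94% over the 7 libraries, where the median was 7.68% over the 7285 tested genes whose log2 CPM averaged 3 or more. Its log2 fold change was -0.01 (SE 0.05, edgeR adjusted p = 0.953; 95% interval 0.916-fold to 1.08-fold), and 0.0055 without AAV8-IGFBP1 replicate 1.

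The sarcoglycans are single-pass membrane proteins that form a subcomplex beside dystroglycan. Sgcb, encoding beta-sarcoglycan, was at 109.8, 115.0 and 117.2 CPM in AAV8-IGFBP1, against 102.4, 109.5, 101.4 and 107.6 CPM in AAV8-Null. All 3 AAV8-IGFBP1 libraries lay above all 4 AAV8-Null libraries, the lowest of them by less than 1 CPM. Sgcb did not pass the test, with an edgeR adjusted p of 0.427 for its log2 fold change of 0.12 (SE 0.06, 95% interval 0.994-fold to 1.18-fold). Mean centred log2 levels of 2 marker lists also did not overlap between the groups, being lower in AAV8-IGFBP1 (unadjusted exact permutation p = 0.0286 each, the smallest possible, two-sided). They were smooth muscle and pericytes (9 markers, 7 with a log2 fold change below 0 and 1 called lower, summed at 241 to 258 CPM in AAV8-IGFBP1 and 244 to 325 CPM in AAV8-Null) and satellite cells (6 markers, 5 tested, 4 below 0 and 1 called lower, summed at 37.9 to 42.8 CPM in AAV8-IGFBP1 and 49.4 to 59.98 CPM in AAV8-Null). No marker of these lists was at 0 in all libraries. The other marker lists, compared between the groups in the same way, gave exact permutation p-values of 0.0857 to 0.943. None of these group p-values was adjusted over the lists, so the 2 lowest do not establish a difference in these cells. Over the 7 libraries, Sgcb had r = -0.751 with the smooth muscle and pericyte level (exact permutation p = 0.0444, adjusted over 96 relations 0.456). With the satellite cell level Sgcb had r = -0.752 (exact permutation p = 0.0720, adjusted 0.456). The part of these cells in the Sgcb values was not tested.

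Sgca, encoding alpha-sarcoglycan, which is made almost only in striated muscle, was at 103.1, 106.3 and 115.5 CPM in AAV8-IGFBP1, against 112.4, 111.7, 111.3 and 121.5 CPM in AAV8-Null. AAV8-IGFBP1 replicates 1 and 2 were the lowest libraries, and replicate 3 lay within the AAV8-Null range. AAV8-Null replicate 4 lay far above the other 3 of its group. Sgca had a log2 fold change of -0.08 (SE 0.06, 95% interval 0.861-fold to 1.04-fold, edgeR adjusted p = 0.663). The CPM of Sgca as a percentage of Sgcb was 93.9, 92.4 and 98.5% in AAV8-IGFBP1 and 109.8, 102.0, 109.8 and 112.9% in AAV8-Null. That was the only ratio of the 4 computed whose groups did not overlap, and it was given no test. Sgcb by itself already had groups that did not overlap, so the ratio is not a separate observation.

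Sgcd, encoding delta-sarcoglycan, had the largest fold change of the 8 genes and a wide spread. It was at 28.9, 22.1 and 25.2 CPM in AAV8-IGFBP1, against 21.5, 27.1, 19.0 and 20.01 CPM in AAV8-Null. AAV8-Null replicate 2 lay above 2 of the 3 AAV8-IGFBP1 libraries. Its log2 fold change was 0.21 (SE 0.14, edgeR adjusted p = 0.570; 95% interval 0.935-fold to 1.43-fold), and it moved with single libraries. With AAV8-IGFBP1 replicate 1 left out it was 0.11 (edgeR adjusted p = 0.853), and leaving out AAV8-Null replicate 2 gave 0.33 (edgeR adjusted p = 0.233).

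Sspn encodes sarcospan, a small protein with 4 membrane passes that binds the sarcoglycans. Its levels were 94.4, 87.2 and 95.3 CPM in AAV8-IGFBP1 and 97.1, 88.8, 88.9 and 99.5 CPM in AAV8-Null, and the groups overlapped throughout. For Sspn the log2 fold change was -0.02 (SE 0.07, edgeR adjusted p = 0.933; 95% interval 0.891-fold to 1.09-fold). It lay just above 0 with AAV8-IGFBP1 replicate 2 left out (0.020), and likewise with AAV8-Null replicate 1 (0.00092) or replicate 4 (0.011) left out.

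Lama2 encodes the laminin alpha 2 chain, the main matrix partner of dystroglycan in muscle, and is made by fibroblasts and Schwann cells as well as by fibres. It was at 49.4, 31.4 and 34.9 CPM in AAV8-IGFBP1, against 33.4, 36.0, 40.0 and 34.1 CPM in AAV8-Null. The AAV8-IGFBP1 group held both its highest library, replicate 1, and its lowest, replicate 2. Its log2 fold change was 0.10 (SE 0.15, 95% interval 0.846-fold to 1.37-fold, edgeR adjusted p = 0.828), or -0.11 without AAV8-IGFBP1 replicate 1. Summed fibroblast markers (7 genes, all 7 with a log2 fold change below 0, none at 0 in every library) were 206 to 346 CPM in AAV8-IGFBP1 and 262 to 374 CPM in AAV8-Null. Summed Schwann cell markers (8 genes, 7 tested and all 7 below 0, none at 0 in every library) were 34.2 to 39.8 CPM in AAV8-IGFBP1 and 40.5 to 59.3 CPM in AAV8-Null, and the part of either list in the Lama2 values was not tested.

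Leaving out AAV8-IGFBP1 replicate 2, the library that stood apart, changed no call among the 8 genes. The log2 fold changes were then 0.08 for Dmd, -0.11 for Utrn, -0.03 for Dag1, -0.06 for Sgca, 0.11 for Sgcb, 0.30 for Sgcd, 0.02 for Sspn and 0.23 for Lama2, with edgeR adjusted p-values of 0.516 to 0.944.

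Levels can be set side by side between genes only per length, and were divided by the longest annotated coding transcript of each gene in GENCODE M21. This is an approximation, since the transcripts used in the muscle were not measured. Sgca was the most abundant, at 62.8 ± 3.71 CPM per kb in AAV8-IGFBP1 and 66.2 ± 2.82 CPM per kb in AAV8-Null (SD, n = 3 and 4), and Dag1 followed at 46.0 ± 1.24 and 46.4 ± 0.720 CPM per kb in the same 2 groups. Sgcb, Sspn, Sgcd, Dmd and Lama2 came next in that order. Utrn was the lowest, at 2.20 ± 0.346 CPM per kb in AAV8-IGFBP1 and 2.23 ± 0.251 CPM per kb in AAV8-Null. The ranges of neighbours in this order did not overlap over the 7 libraries, the closest being Sgcd (7.75 to 11.8 CPM per kb) and Dmd (6.80 to 7.49 CPM per kb).

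**Figure D2:**
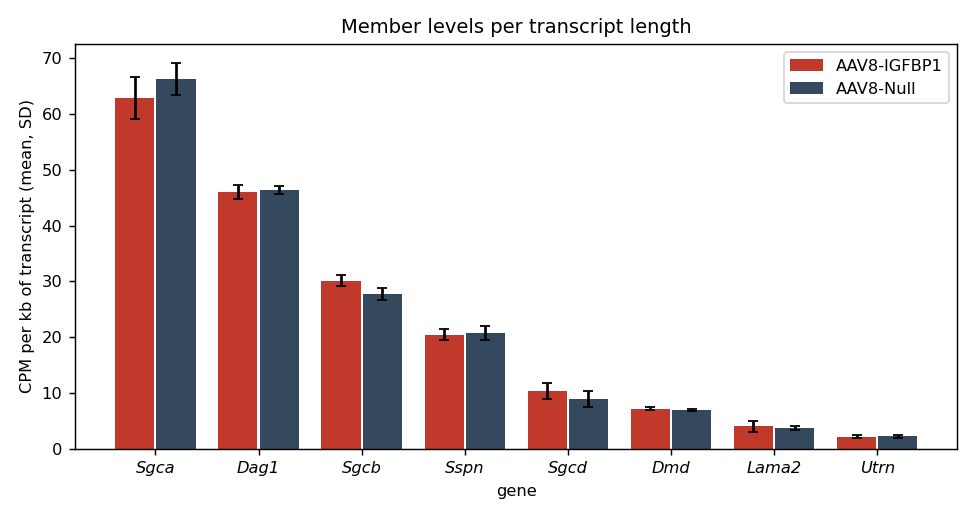
Mean level of each member in CPM per kb of its longest coding transcript, with SD bars, for AAV8-IGFBP1 (red, n = 3) and AAV8-Null (dark blue, n = 4). The order runs from Sgca, above 60 CPM per kb in both groups, down to Utrn, near 2.2 CPM per kb.

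Of 28 pairs of members, 1 passed adjustment over the pairs. Dmd and Sgcd had the highest correlation of log2 CPM over the 7 libraries (Pearson's r = 0.952, exact permutation p = 0.00159, adjusted over the 28 pairs 0.0444; Spearman's rho = 0.893, exact permutation p = 0.0123, adjusted 0.333). Their r was 0.966 without the 2 libraries farthest from the median of Dmd. Dmd and Dag1 ran in opposite directions (r = -0.907, exact permutation p = 0.00575, adjusted 0.0806; rho = -0.786, exact permutation p = 0.0480, adjusted 0.448), with r = -0.827 without the 2 farthest libraries. AAV8-IGFBP1 replicate 1 was highest for Dmd and Sgcd and lowest for Dag1. Only the Dmd and Sgcd pair passed adjustment, by Pearson's r and not by rank. All values of a library share its scaling and its tissue content, and groups of 3 and 4 libraries are too small for a correlation within each.

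**Figure D3:**
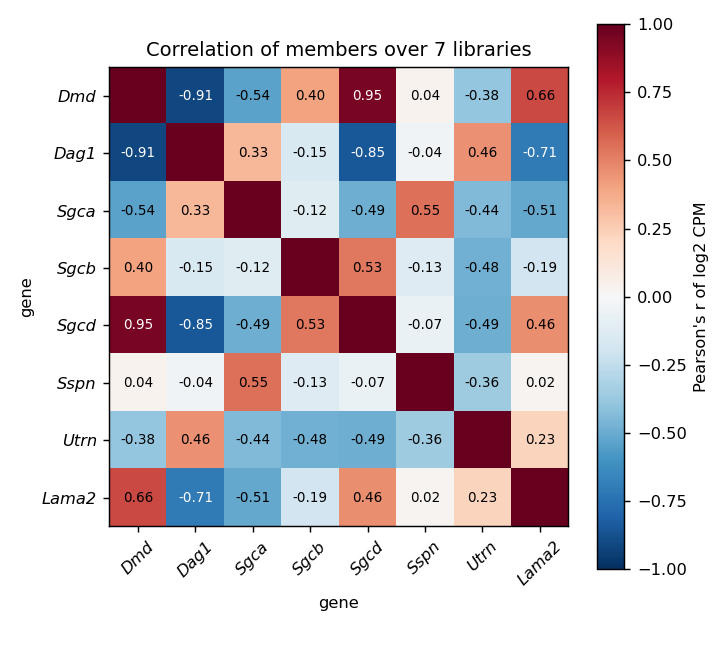
Pearson's r of log2 CPM over the 7 libraries for each pair of the 8 members, red for positive and blue for negative values. The strongest cells are Dmd with Sgcd (0.95) and Dmd with Dag1 (-0.91), while Sspn and Dmd are near 0 (0.04).

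**Figure D4:**
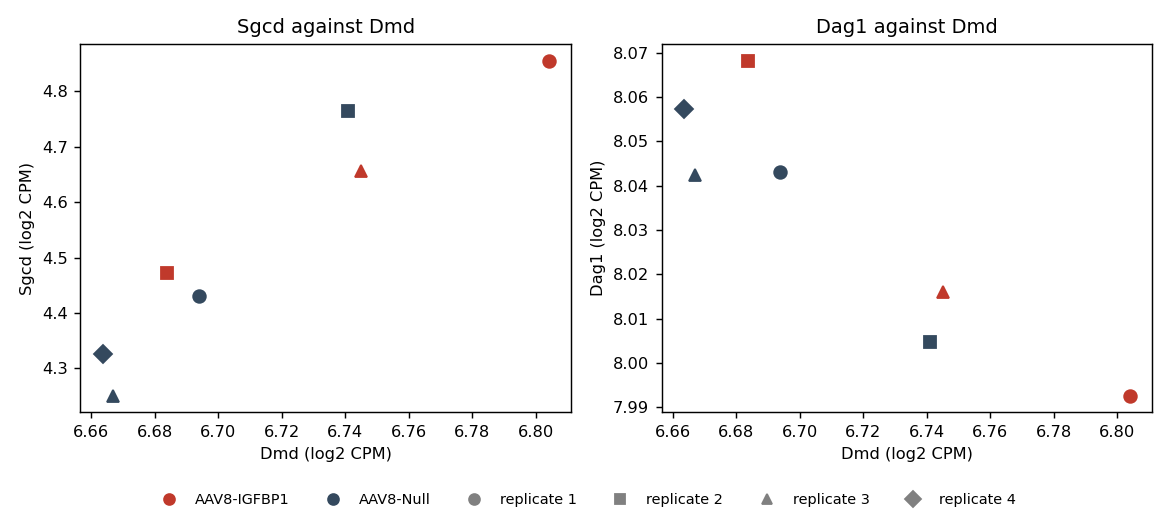
Log2 CPM of Sgcd (left) and Dag1 (right) against log2 CPM of Dmd, 1 point per library, red for AAV8-IGFBP1 and dark blue for AAV8-Null, with marker shapes for replicate numbers. Sgcd is high and Dag1 low in the libraries with much Dmd, and points of both groups lie along both patterns.

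Levels of 12 marker lists were set against the 8 members in the same way, 96 relations in all, and 0 passed adjustment by either measure. The closest were those of Schwann cell markers with Sgcd (r = -0.940, exact permutation p = 0.00357, adjusted 0.219; rho = -0.964, p = 0.00278 by exact permutation, adjusted 0.267) and with Dmd (r = -0.908, exact permutation p = 0.00456, adjusted 0.219; rho = -0.929, p = 0.00675 by exact permutation, adjusted 0.324). Without the 2 libraries farthest from the median Schwann cell level, r was -0.855 for Sgcd and -0.868 for Dmd. Sgca and the slow fibre level gave weaker values (r = 0.814, exact permutation p = 0.0282, adjusted 0.456; rho = 0.750, p = 0.0663 by exact permutation, adjusted 0.446; r = 0.851 without the 2 farthest). So did Utrn and the tenocyte level (r = 0.787, exact permutation p = 0.0337, adjusted 0.456; rho = 0.571, p = 0.200 by exact permutation, adjusted 0.446). That relation rested on 2 libraries, since r was 0.0021 without them.

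Among 7111 other genes whose log2 CPM averaged 3 or more, those most like Dmd over the 7 libraries by Pearson's r were Rif1 (0.987), Zfand3 (0.974), Scrib (0.973), Fbxo8 (0.964) and Taf6 (0.959). Those most like Utrn were Reep3 (0.973), Sptbn1 (0.972), Tshz2 (0.932), Msn (0.931) and Ssb (0.928). They are the highest of 7111 candidates over only 7 libraries and are named as a description. None of the 10 passed the test between the groups (edgeR adjusted p 0.613 to 0.990), where 0.583% of all genes tested did. Dmd and Utrn did not pass either, so genes picked for likeness to them could hardly have passed. The count is therefore no separate result.

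Further genes of the complex were taken from a list of 19, of which 17 were tested. None passed the test (0 with DESeq2 or limma-voom), 5 had a log2 fold change above 0 and 12 below 0, and the median was -0.06, against -0.0010 over all genes tested. Among the 17, 4 had an unadjusted edgeR p under 0.05 and 4 had groups that did not overlap, against 12.9% and 12.3% of all genes tested. Sgcz, encoding zeta-sarcoglycan, had 0 counts in all 7 libraries, which allows up to 0.0651 to 0.0726 CPM in the AAV8-IGFBP1 libraries and up to 0.0580 to 0.0786 CPM in the AAV8-Null libraries, and Sntg1 had 1 count in all.

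Dtna, encoding alpha-dystrobrevin, a dystrophin relative that binds syntrophins, was at 104.9, 95.2 and 106.7 CPM in AAV8-IGFBP1, against 90.6, 89.96, 90.8 and 91.9 CPM in AAV8-Null. Its AAV8-Null libraries lay close together and all below AAV8-IGFBP1, at 0.17 on the log2 scale (SE 0.06, edgeR adjusted p = 0.260). Sntb2, encoding the adaptor beta-2-syntrophin, gave -0.39 (edgeR adjusted p = 0.239), and its groups did not overlap. Nos1, encoding the neuronal nitric oxide synthase held at the sarcolemma by the complex, gave 0.21 (edgeR adjusted p = 0.351), and its groups overlapped. AAV8-IGFBP1 replicate 3 was its highest library at 221.4 CPM, and without it the value was 0.11 (edgeR adjusted p = 0.599).

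Enzymes that build the laminin-binding sugar chain of alpha-dystroglycan formed a list of 18, of which 17 were tested. None passed (0 with DESeq2 or limma-voom), 3 had an unadjusted edgeR p under 0.05, against 12.9% of all genes tested, 12 had a log2 fold change above 0 and 5 below 0, and the median was 0.03. On the log2 scale Dolk, a dolichol kinase gene, gave 0.23 (edgeR adjusted p = 0.338), and B3galnt2, a sugar transferase gene, -0.13 (0.588).

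Of 16 tested genes of the basement membrane and its collagen VI neighbour, 0 passed edgeR's test or limma-voom and 6 had an unadjusted edgeR p under 0.05, where all genes tested gave 12.9%. DESeq2 called 4, against 3.28% of the genes it tested, of which Lamb2 was higher and Col6a1, Col6a2 and Col6a3 were lower. The median log2 fold change was -0.12, with 5 above 0 and 11 below. Lamb2 encodes the laminin beta 2 chain. Its levels were 147.0, 132.2 and 132.4 CPM in AAV8-IGFBP1, against 107.6, 102.5, 109.2 and 122.4 CPM in AAV8-Null (log2 fold change 0.31, SE 0.07, edgeR adjusted p = 0.1199, DESeq2 adjusted p = 0.0103). All AAV8-IGFBP1 libraries lay above all AAV8-Null libraries for Lamb2. The laminin gamma 1 chain gene Lamc1 gave 0.04 (edgeR adjusted p = 0.869). The laminin beta 1 chain gene Lamb1 gave -0.12 (edgeR adjusted p = 0.567).

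Col6a2, a collagen VI chain gene, was at 41.2, 34.7 and 26.8 CPM in AAV8-IGFBP1, against 55.1, 65.7, 75.8 and 55.7 CPM in AAV8-Null (log2 fold change -0.88, SE 0.17, edgeR adjusted p = 0.0820, DESeq2 adjusted p = 7.38e-06). Its groups did not overlap, and Col6a1 (-0.79, edgeR adjusted p = 0.135) and Col6a3 (-0.65, 0.175) also had lower values. The highest library for all 3 was AAV8-Null replicate 3 and the lowest AAV8-IGFBP1 replicate 3. Those libraries also lay at the ends of the summed tenocyte, fibroblast and macrophage markers. The part of any of these cell types in the collagen VI values was not tested.

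Integrin adhesion genes link the fibre to laminin beside the dystrophin complex. Of 11 tested, Tln2, encoding the talin form prominent in striated muscle, rose, while the other 10 did not pass edgeR's test and had log2 fold changes below 0. The median of the 11 was -0.11, 4 had an unadjusted edgeR p under 0.05, limma-voom called 0 and DESeq2 called 2. Over all genes these shares were 12.9%, 0.415% and 3.28%, and edgeR's own 0.583%. Tln2 was at 203.6, 174.2 and 189.8 CPM in AAV8-IGFBP1, against 136.3, 136.8, 123.2 and 151.9 CPM in AAV8-Null. The groups did not overlap, and the difference was 0.46 on the log2 scale (SE 0.08, 1.38-fold, edgeR adjusted p = 0.0460, DESeq2 adjusted p = 5.40e-05). The call lay close to the threshold: with 1 library left out it stayed without AAV8-Null replicate 4 (edgeR adjusted p = 0.0411) and was lost without any other, at 0.148, 0.0921 and 0.0884 without AAV8-Null replicates 1, 2 and 3 and at 0.174, 0.0732 and 0.104 without AAV8-IGFBP1 replicates 1, 2 and 3. Itgb1bp2, encoding the integrin-binding chaperone melusin, gave -0.31 (edgeR adjusted p = 0.115, DESeq2 adjusted p = 0.00879), Tln1 -0.13 (0.380 by edgeR) and Vcl, the vinculin gene, -0.20 (0.354 by edgeR). The alpha 7 and beta 1 subunit genes of the muscle laminin receptor gave -0.11 for Itga7 (edgeR adjusted p = 0.613) and -0.0042 for Itgb1 (0.988).

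**Figure D5:**
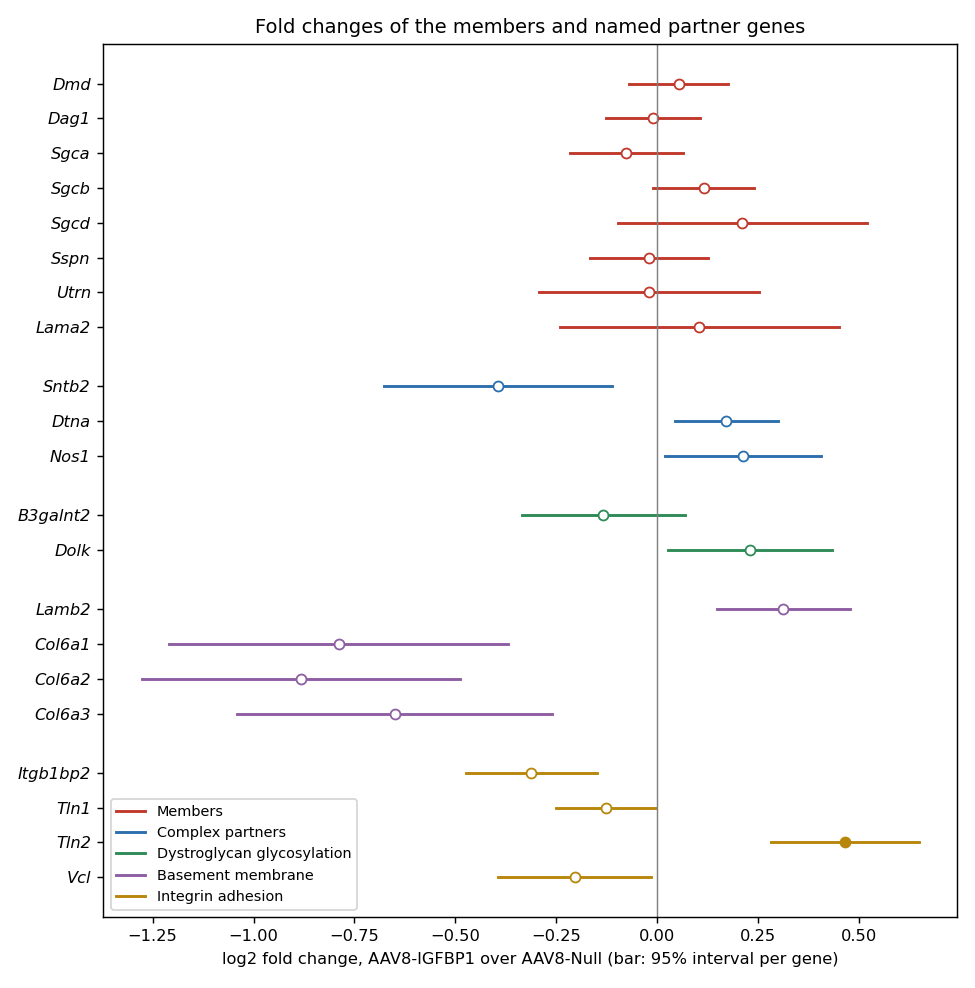
Log2 fold change, AAV8-IGFBP1 over AAV8-Null, with its 95% interval for the 8 members and genes named from 4 related lists. Filled points passed the test at an edgeR adjusted p under 0.05, which holds for Tln2, and the members' points lie between -0.08 and 0.21.

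Of 11 membrane repair genes tested, 0 were called with any of the 3 tools, and 0 had an unadjusted edgeR p under 0.05. Over all genes, 0.583% were called by edgeR, 3.28% by DESeq2 and 0.415% by limma-voom, and 12.9% had such an unadjusted p. Counts of 0 among 11 are thus near the background. Dysf, encoding dysferlin, which seals torn membrane, was at 74.4 ± 5.18 CPM in AAV8-IGFBP1 and 78.1 ± 3.32 CPM in AAV8-Null (SD, n = 3 and 4; log2 fold change -0.07, edgeR adjusted p = 0.715). The others with the lowest p were Ano5 (0.14, edgeR adjusted p = 0.465), Anxa2 (-0.42, 0.414) and Anxa5 (-0.16, 0.791). Anxa2 was lowest in AAV8-IGFBP1 replicate 3, at 14.7 CPM, and its value was -0.21 without that library. That of Anxa5 was 0.022 without the same library and -0.43 without AAV8-IGFBP1 replicate 2. Genes of regenerating fibres, which rise in dystrophic muscle, gave 0 calls of 5 tested by the same tools and 0 with an unadjusted p under 0.05. Counts of 0 among 5 are also near those background shares. Embryonic myosin, Myh3, was at 2.12 ± 0.542 CPM in AAV8-IGFBP1 and 3.01 ± 0.682 CPM in AAV8-Null (SD, n = 3 and 4; log2 fold change -0.49, edgeR adjusted p = 0.403). Myog, Ncam1 and Myod1 gave -0.16, -0.06 and 0.09 (edgeR adjusted p 0.827, 0.895 and 0.906), and the myoblast fusion genes Mymk and Mymx had 13 and 5 counts over all 7 libraries and were not tested.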

How the data were processed

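Quadriceps RNA was measured in 7 libraries, 3 of AAV8-IGFBP1 and 4 of AAV8-Null, grouped by title. The values deposited by the authors are estimated counts, 1 row per gene symbol. Named in the submitters' processing notes, without their roles, are Salmon 1.10.1, STAR 2.7.9a, Trim Galore 0.6.7, cutadapt 3.4, R 4.2.2 and build GRCm39. Annotation and strand setting are not given in the sources used here, and genes that overlap could share reads. Between 5617 and 6277 values per library were not whole (tolerance 1e-06), and all were rounded.

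The test was edgeR 4.0.16 (R 4.3.3): filterByExpr defaults (minimum count 10, total 15), TMM scaling, estimateDisp, glmQLFit (robust, with its newer method) and glmQLFTest on group, with Benjamini-Hochberg adjustment over 14935 genes and a threshold of 0.05. Standard errors were derived from each fold change and its F, and 95% intervals are per gene. CPM uses TMM-scaled totals, and log2 CPM a prior count of 2. A count of 0 allows up to 3 counts, which covers counting error only. DESeq2 1.42.0, limma-voom 3.58.1, other scalings and filters, a replicate block and each library left out were the alternatives. Single values were compared by an exact permutation test over 35 splits (two-sided, smallest p 0.0286). No library repeated another (chi-square over its degrees of freedom was 22.2 to 60.0 within groups). The fit was checked on simulated counts.

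Members and lists were chosen with earlier results of these data known. Named genes are the members, up to 4 genes per list with the lowest unadjusted p and all called ones, and the 5 most like Dmd and Utrn. Sgcz, Sntg1, Lamb1, Lamc1, Itga7, Itgb1, Mymk and Mymx were picked after their values were seen, for their roles. Some genes that this rule names are counted in their lists but not reported here by name.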

Additional observations from a re-analysis of the deposited data

Results flagged for a closer look

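Within the 4 AAV8-Null libraries, 1 member and 3 partner genes had a library far from the others, of 32 genes examined, where chance gives about 1 in 20. Sgca reached 121.5 CPM in AAV8-Null replicate 4, while the rest of that group ran from 111.3 to 112.4 CPM, so the AAV8-Null mean of Sgca rests partly on that library, and without it the log2 fold change was -0.05. Leaving out AAV8-IGFBP1 replicate 1 gave -0.04, and leaving out replicate 3 of that group -0.12. In AAV8-Null replicate 3, Col6a3 reached 62.6 CPM (41.6 to 44.4 CPM in the rest) and Vcl 88.4 CPM (71.98 to 74.2 CPM in the rest). Ncam1 reached 6.01 CPM in AAV8-Null replicate 4, against 4.74 to 4.91 CPM in the rest.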

How the results depend on the processing

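None of the 8 members passed the test under any of 17 alternatives, where the lowest adjusted p was 0.233, for Sgcd. Over 136 such values for the members, 128 kept their sign and 8 did not: Sspn was at 0.011 with the replicate number as a block, and with 1 library left out Dag1 ran from -0.032 to 0.0055, Sspn from -0.043 to 0.020, Utrn from -0.11 to 0.10 and Lama2 from -0.11 to 0.23. Among the other named genes, Ncam1 was at 0.023 and Myod1 at -0.055 with the block, and with 1 library left out Anxa5 ran from -0.43 to 0.022, Myog from -0.29 to 0.060, Ncam1 from -0.13 to 0.028 and Myod1 from -0.064 to 0.21. The 87 genes changed over the whole table were 157 with no count filter, 451 with DESeq2 and 4 with the replicate block, and 14 to 79 with 1 library left out (14 and 44 without AAV8-Null replicates 1 and 3; 27, 30 and 49 without AAV8-IGFBP1 replicates 1, 2 and 3); the cause was not tested. Deviations of same-numbered libraries from their group means correlated at r -0.0984, 0.0682 and -0.0574. Libraries of unlike number were not compared, so these values cannot decide whether the numbers pair libraries. With the block 0 members passed. In that fit AAV8-Null replicate 4 had no same-numbered AAV8-IGFBP1 library, so it added nothing to the estimated group difference. Tln2 missed the threshold with upper-quartile scaling (adjusted p = 0.0508), robust FALSE (0.0528), limma-voom (0.0613) and the replicate block (0.132), and its adjusted p was 5.40e-05 to 0.174 over all alternatives. The older edgeR method was added after the data were seen. Precision differed between members, whose standard errors on the log2 scale ran from 0.0517 (Dag1) to 0.150 (Lama2) with the same libraries, and each member's own 95% interval gives the changes that these libraries leave possible.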
